A study of Mus musculus with 45 samples.

Results

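The transcriptional response of LM1-LM cells to the loss of cysteine and cystine was compared with that of LM1 cells, from which they descend by a further passage through the lung. The comparison is an interaction: the change from control to cysteine/cystine free medium in LM1-LM minus the same change in LM1. It rests on 12 of the 45 libraries of the series, with 3 cultures of each line in each medium, and its members are the genes that passed the test of that difference among the 13400 genes tested of the 28454 listed. The groups are LM1 in control medium, LM1 deprived of cysteine and cystine, LM1-LM in control medium and LM1-LM deprived in the same way, and all of them were mouse mammary tumour cells grown as a monolayer for 24 h before a medium change and sampled 6 h after it. LM1 was isolated from lungs of FVB/NJ mice after Myc310 cells had been injected into the mammary fat pad, and LM1-LM from lungs after injection of LM1 cells. Myc310 itself comes from a tumour of an MMTV-cMYC mouse, in which a mammary tumour virus promoter drives the cMYC transgene, so every line compared here shares that transgene. Each line was represented by a single isolate, and nothing in the labels says that the 3 cultures came from separate isolates or days, so the p-values measure the spread between cultures of that isolate, and a difference between lines cannot be told apart from a difference between isolates.

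Cysteine supplies the thiol of glutathione and of many proteins. Cells import its oxidised form, cystine, through the xCT transporter that Slc7a11 encodes, or make cysteine from methionine by transsulfuration through Cbs and Cth. When an amino acid is missing, uncharged tRNA activates the kinase GCN2, translation slows, and the transcription factor ATF4 raises genes of amino acid transport, synthesis and tRNA charging together with stress regulators such as Ddit3, Trib3 and Chac1. This integrated stress response (ISR) is the best known part of the response to cystine loss, which can otherwise end in lipid peroxidation and ferroptosis.

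The gene counts of the 12 cultures summed to between 19521444 and 28188741 each, and the share of counts on mitochondrial genes was 0.113% to 0.146% in control medium and 0.209% to 0.232% in deprived medium. Culture 1 of LM1-LM in control medium lay further from its replicates than any other culture, with a chi-square per degree of freedom of 4.91 and 6.13 against its replicates where the other pairs within groups ranged from 2.25 to 3.05. Krt8 and Krt18, keratins of simple and luminal epithelium, stood at 820 CPM or more and 185 CPM or more in every culture, whereas Epcam, Cdh1, Krt5 and Krt14 did not exceed 0.252 CPM. The leukocyte gene Ptprc, the surfactant gene Sftpc and the club cell gene Scgb1a1 had no count in any of the 12 libraries, and Pecam1 did not exceed 0.125 CPM. Other genes of those marker lists had counts in every library. They were Cd14 (19.5 to 55.5 CPM), Cd68 (8.92 to 16.5 CPM), Egfl7 (5.64 to 14.1 CPM) and Abca3 (49.2 to 69.5 CPM). At low levels Itgam (0.229 to 0.858 CPM) and Ager (0.0504 to 0.985 CPM) were counted in every library too. The part of these genes in the results was not tested. The summed level of 12 fibroblast markers was 15.2 to 17.7 CPM in LM1 cultures and 57.6 to 63.6 CPM in LM1-LM in control medium, and 10.6 to 11.5 and 26.9 to 29.3 CPM in deprived medium. Most of this sum was Col3a1, while Dpt, Fap and Thy1 had no count, and its part in the results was not tested.

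Deprivation changed most genes in both lines, and the difference between the lines' changes passed the test for few genes. In LM1, 71.1% of the genes tested passed the threshold between deprived and control medium, and in LM1-LM 72.4% did. The difference between the responses passed in 103 genes, or 0.769% of the genes tested, by edgeR's quasi-likelihood test with a threshold of 0.05 on the Benjamini-Hochberg adjusted p, and 1514 genes had an unadjusted p under 0.05. The response was more positive in LM1-LM for 44 genes (0.328%) and more negative for 59 (0.44%). The number depended on single cultures: it was 48 without culture 1 and 56 without culture 2 of deprived LM1, 55 without culture 3 of LM1 in control medium, and 54 without culture 1 and 64 without culture 3 of deprived LM1-LM. It was 4 when culture 1, 5 when culture 2 and 44 when culture 3 was left out of all groups. Of the 103 genes, 28 passed under all 9 other settings that keep every library and also with each of the 12 libraries left out in turn, and 25 of those 28 responded in the same direction in both lines and more strongly in LM1-LM, 12 upwards and 13 downwards.

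**Figure D1:**
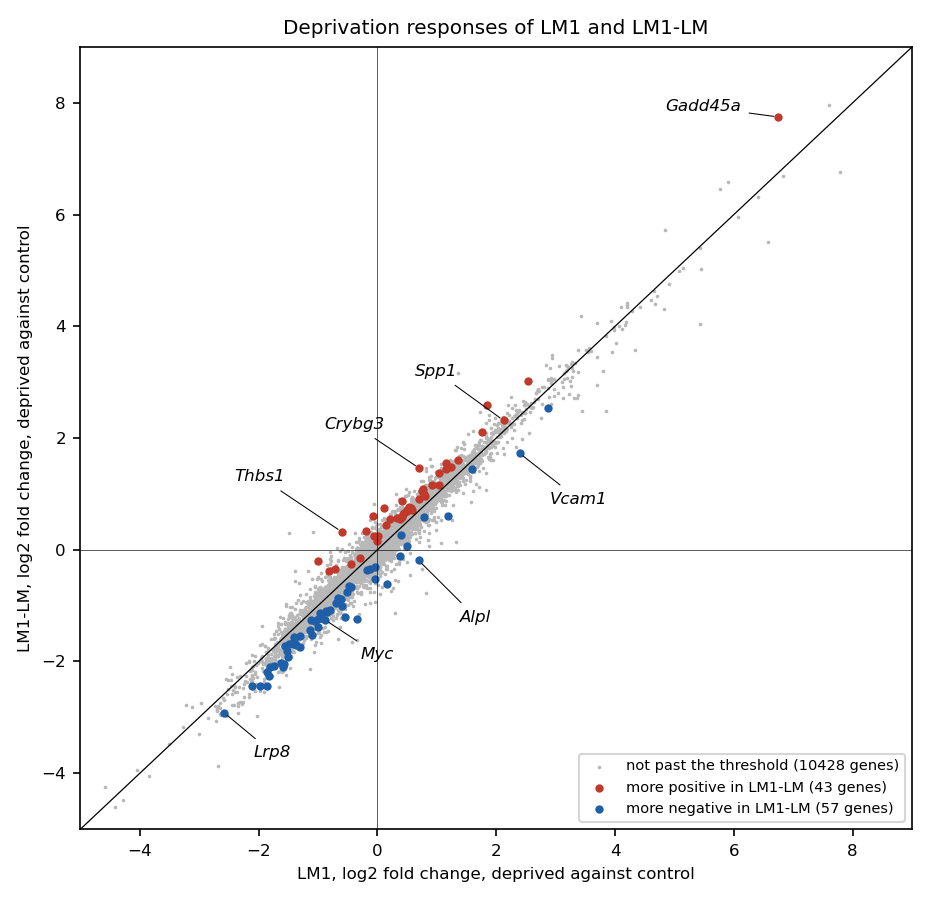
Each point is a gene with a mean of at least 2 CPM over the 12 libraries, with its log2 fold change between deprived and control medium in LM1 on the x axis and in LM1-LM on the y axis; the diagonal marks equal responses. The 43 genes in red and 57 in blue passed the test of the difference and lie close to the diagonal, and 5 genes that did not pass lie outside the axes, which run from -5 to 9.

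The differences were small beside the responses themselves. Among the 100 called genes with a mean of at least 2 CPM over the 12 libraries, the median absolute difference was 0.289 on the log2 scale (range 0.125 to 1.01). It was under 0.5 in 84 of these genes, and Gadd45a alone exceeded a 2-fold difference. Over all genes tested the median absolute difference was 0.0878 and the median signed difference was close to 0 (0.0005). Most of the members were genes that both lines changed in the same direction: 77 of the 103 responded more strongly in LM1-LM, 32 by rising and 45 by falling further, and 10 responded less strongly. Another 4 passed in LM1 alone and 9 in LM1-LM alone, and 3 passed in both lines in opposite directions. A larger response of LM1-LM was also found beyond the called genes, though in a smaller share than the 77 larger against 10 smaller among them. Of the 8805 genes called in both lines in the same direction, 5513 (62.6%) had the larger change in LM1-LM. The median absolute log2 fold change of these 8805 genes was 0.58 in LM1 and 0.614 in LM1-LM. That share was 62.7% for genes that rose and 62.6% for genes that fell, and it stayed between 62.1% and 63.3% under the other settings that kept every library and between 59.8% and 64.2% with cultures left out, alternatives added after the values were seen.

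The integrated stress response was strong in both lines, with medians that lay close together. All 43 tested genes of a list of ISR and amino acid response genes rose in LM1, where 35.8% of all genes tested did, and 42 rose in LM1-LM, where 36.5% of all genes did and Stc2 did not pass (log2 fold change 2.68, adjusted p = 0.117 for deprived against control medium). None of the 43 passed the test of the difference by edgeR, 8 had an unadjusted p under 0.05, and Slc3a2, the heavy chain that carries xCT to the membrane, passed with DESeq2 and with limma voom (edgeR difference -0.13, adjusted p = 0.0583). The median log2 fold change was 2.57 in LM1 and 2.55 in LM1-LM. Chac1, which encodes a glutathione-degrading enzyme, stood at 1.60, 1.27 and 1.27 CPM in the LM1 control cultures and at 111, 117 and 114 CPM in the deprived ones. In LM1-LM its values were 1.03, 1.37 and 2.15 CPM in control medium and 114, 114 and 121 CPM in deprived medium. Deprived cultures of the lines overlapped for Chac1, and its response differed by -0.10 ± 0.20 (SE, log2, adjusted p = 0.921).

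Cth, the transsulfuration enzyme that releases cysteine, rose 10.0-fold in LM1 and 10.1-fold in LM1-LM, and the difference was 0.02 ± 0.07 (adjusted p = 0.964). Slc7a11 rose 15.7-fold and 15.3-fold, Trib3 33.7-fold and 31.6-fold, Asns 6.04-fold and 5.77-fold, and Atf4 5.72-fold and 6.09-fold. These genes passed in each line, and none of their differences did, with adjusted p-values of 0.383 to 0.916. Among genes of glutathione synthesis the nearest to the threshold was Gclc, the catalytic subunit of the rate-limiting ligase. It stood at 85.0, 86.9 and 88.5 CPM in LM1 cultures and 85.8, 82.7 and 84.5 CPM in LM1-LM in control medium, and at 74.3, 73.9 and 73.7 CPM and 61.6, 59.2 and 65.3 CPM in deprived medium. Its difference of -0.21 ± 0.05 had an adjusted p of 0.0597 and passed in 5 of the 9 other settings that keep every library, DESeq2 among them (adjusted p = 0.0160). Some called genes described below held no more often, since Gab1, Syt8, Thbs1 and Amigo2 also passed in 5 of these 9 settings. Alpl, Sulf2, Numbl, Rassf4, Rpp25l, Rrp9 and Ccnb1 passed in 6 of them. Cbs, the other transsulfuration enzyme, had between 0 and 7 counts in each of the 12 libraries, and Gpx3, a secreted glutathione peroxidase, between 1 and 23. Their differences did not pass (adjusted p = 0.724 and 0.737), and with counts this low no fold is given. Gclm, Gss, Gsr and Gpx4, which make, reduce or use glutathione, differed by -0.04, -0.06, 0.05 and -0.02, with adjusted p-values of 0.827 to 0.923.

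Genes with a strong response in both lines and genes whose response difference passed the test can be set side by side at their promoters. The sequences below are RefSeq windows of 300 bases from 250 bases before the start site to 50 after it, on the gene's strand and in build GRCm38.p6, and capitals mark a match to any of 4 motifs searched on both strands: TGATGNAAN, a C/EBP-ATF composite element of ATF4 targets, TGANTCA (AP-1), TGACNNNGC (antioxidant response element) and CACGTG (E-box). Asns and Chac1 stand for ISR genes that rose in both lines. Gadd45a and Crybg3 are shown as called genes that rose more in LM1-LM, and Plcb3 as one that fell more. The windows are chr6:7693160-7693459 on the minus strand for Asns, chr2:119350992-119351291 on the plus strand for Chac1, chr6:67037358-67037657 on the minus strand for Gadd45a, chr16:59600998-59601297 on the minus strand for Crybg3 and chr19:6969765-6970064 on the minus strand for Plcb3.
Asns: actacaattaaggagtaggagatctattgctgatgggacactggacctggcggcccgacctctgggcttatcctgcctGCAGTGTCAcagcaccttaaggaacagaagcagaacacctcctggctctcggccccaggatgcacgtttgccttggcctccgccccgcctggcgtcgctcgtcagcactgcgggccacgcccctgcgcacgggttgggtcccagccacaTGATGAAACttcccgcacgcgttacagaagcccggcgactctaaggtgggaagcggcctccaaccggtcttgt
Chac1: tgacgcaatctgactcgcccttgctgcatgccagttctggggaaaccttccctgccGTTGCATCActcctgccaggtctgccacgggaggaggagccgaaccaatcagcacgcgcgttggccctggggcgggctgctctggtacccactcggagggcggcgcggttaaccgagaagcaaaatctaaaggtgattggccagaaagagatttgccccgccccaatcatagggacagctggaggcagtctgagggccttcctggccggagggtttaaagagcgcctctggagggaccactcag
Gadd45a: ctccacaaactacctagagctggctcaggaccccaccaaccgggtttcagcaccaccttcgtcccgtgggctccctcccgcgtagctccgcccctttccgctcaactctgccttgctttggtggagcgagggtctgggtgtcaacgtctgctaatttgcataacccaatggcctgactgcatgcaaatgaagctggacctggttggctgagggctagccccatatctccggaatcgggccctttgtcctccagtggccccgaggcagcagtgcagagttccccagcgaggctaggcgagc
Crybg3: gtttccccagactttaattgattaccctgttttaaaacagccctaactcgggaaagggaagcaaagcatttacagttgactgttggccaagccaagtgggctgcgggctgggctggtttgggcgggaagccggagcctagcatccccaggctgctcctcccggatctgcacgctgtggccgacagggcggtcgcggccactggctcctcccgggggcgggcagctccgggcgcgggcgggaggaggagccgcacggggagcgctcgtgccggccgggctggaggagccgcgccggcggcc
Plcb3: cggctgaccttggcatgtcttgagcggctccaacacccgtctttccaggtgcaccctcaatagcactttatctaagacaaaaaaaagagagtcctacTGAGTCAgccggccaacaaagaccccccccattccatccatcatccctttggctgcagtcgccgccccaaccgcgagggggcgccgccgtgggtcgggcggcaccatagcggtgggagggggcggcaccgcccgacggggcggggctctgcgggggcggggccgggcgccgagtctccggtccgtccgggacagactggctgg
The C/EBP-ATF letters begin 23 bases before the Asns start site and 194 before that of Chac1, and those of AP-1 153 bases before the start site of Plcb3. The annotated Plcb3 gene spans chr19:6952325-6976470 on the minus strand, so that its RefSeq window lies inside the gene. Asns also holds the letters of the antioxidant response element 172 bases before its start site. No letters of these motifs are in the Gadd45a and Crybg3 windows. The C/EBP-ATF letters were in 3.95% of all 32851 promoter windows, in 2.17% of the 12528 windows of genes tested and in 12 of 43 windows (27.9%) of the ISR list. The letters of the antioxidant response element were in 13 of those 43 (30.2%), E-boxes in 5 (11.6%) and AP-1 letters in 2 (4.65%). Promoters were given for 86 of the 103 called genes, and 0 of their 122 windows held the C/EBP-ATF letters. AP-1 letters were in 4.92% of the windows of called genes against 5.49% for genes tested, those of the antioxidant response element in 13.9% against 14.2%, and E-boxes in 9.02% against 9.95%. By direction, AP-1 letters were in 0 of the 45 windows of 39 genes more positive in LM1-LM. They were in 6 of the 77 windows (7.79%) of 47 genes more negative, Plcb3 among them, and E-boxes were in 4.44% and 11.7%. Some genes have several windows that overlap, as Dctd does, and each window is counted. All these counts are matches of letters, with no test.

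Crybg3, a gene for a protein with beta/gamma-crystallin domains, had the lowest p-value of the comparison and passed under all 24 alternative settings. It stood at 31.4, 31.4 and 34.5 CPM in the LM1 control cultures and at 51.3, 49.3 and 53.8 CPM in the deprived ones. In LM1-LM it was 34.95, 38.1 and 40.3 CPM in control medium and 104.7, 99.9 and 99.2 CPM after deprivation. The groups of the lines did not overlap in either medium, and LM1-LM was the higher. The rise was 1.62-fold in LM1 and 2.76-fold in LM1-LM, a difference of 0.76 ± 0.08 (SE, log2, adjusted p = 9.46e-07). The gene lies at chr16:59490775-59600979 of GRCm38 on the minus strand, so that the RefSeq window printed above lies outside it, and overlaps Riox2 on the opposite strand. The libraries were made with a directional kit, but whether the counting used strand is not given in the sources used here, and 49 of the 103 called genes overlap an annotated gene on the opposite strand and 21 one on the same strand.

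**Figure D2:**
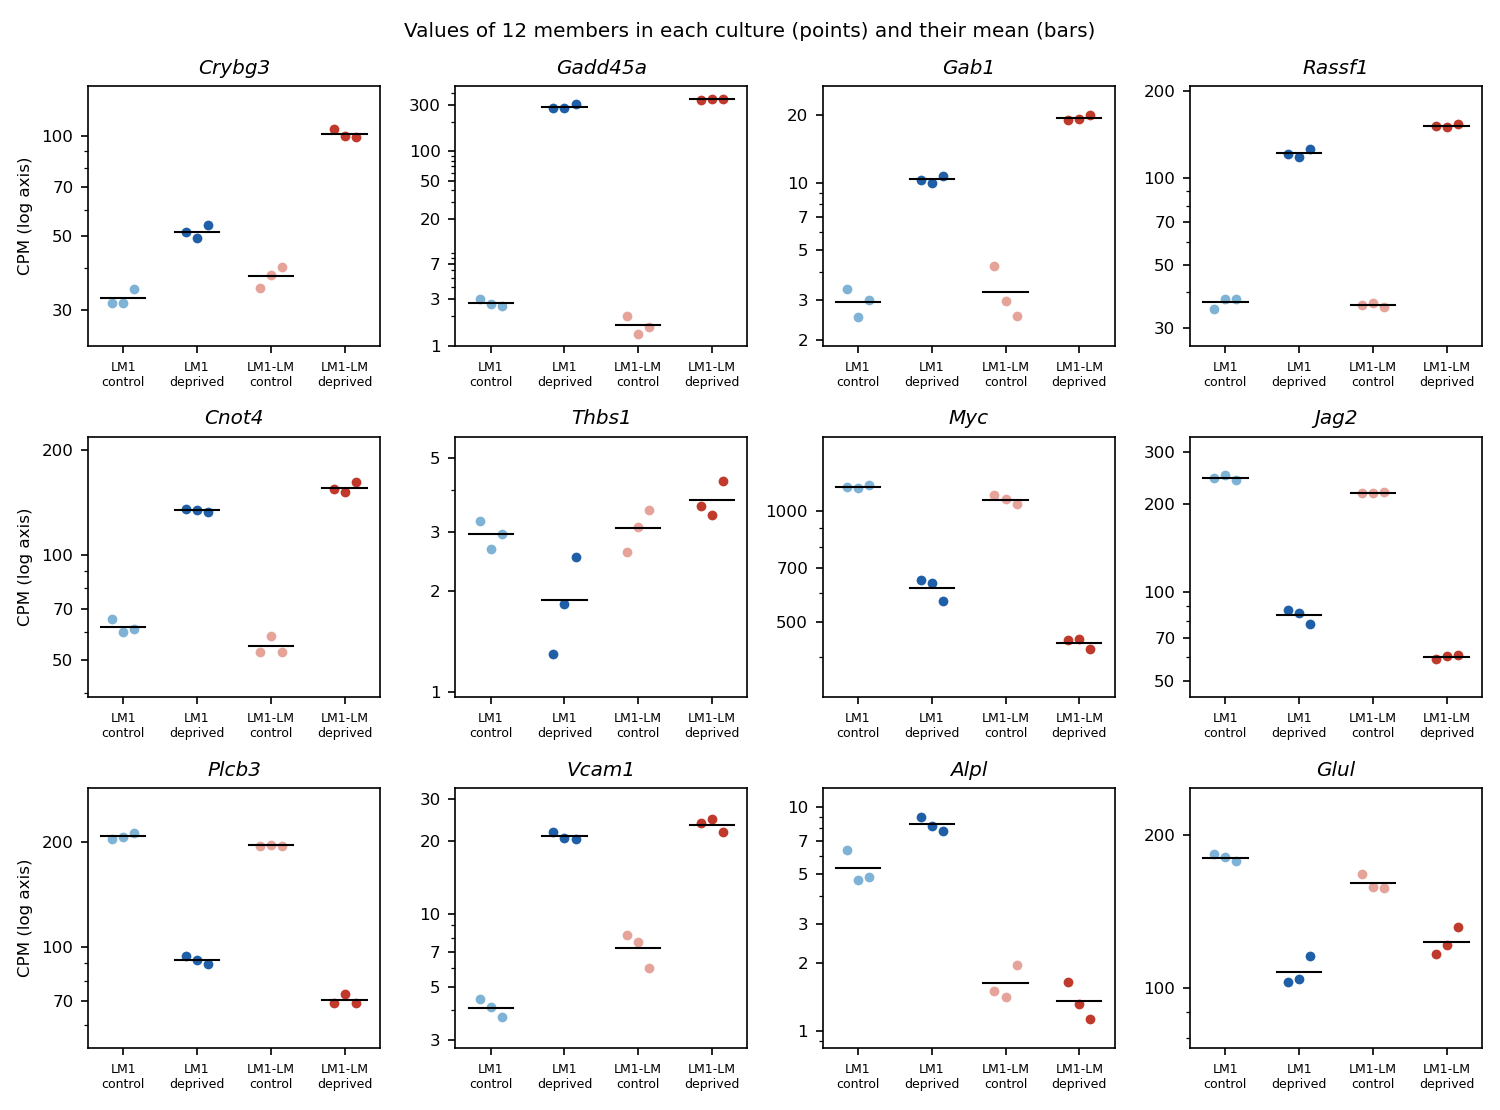
Values of 12 called genes in CPM on a log axis, with 1 point for each of the 3 cultures of a group and a bar at their mean. For Crybg3 the deprived LM1-LM cultures lie at 99.2 to 104.7 CPM, above the deprived LM1 cultures at 49.3 to 53.8 CPM, whereas the control groups of Rassf1 and Gab1 overlap.

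Gadd45a, a growth arrest and DNA damage gene that stress and p53 both raise, showed the largest difference among called genes with at least 2 CPM. Its counts in control medium were low, at 55 to 59 per library in LM1 (2.58 to 3.04 CPM) and 32 to 47 in LM1-LM (1.33 to 2.02 CPM). Deprivation brought it to 278, 276 and 309 CPM in LM1 cultures and to 339, 341 and 347 CPM in LM1-LM. The fold change was therefore 107-fold in LM1 and 215-fold in LM1-LM, a difference of 1.01 ± 0.21 (adjusted p = 0.0164). LM1-LM was lower in control medium by 0.75 (adjusted p = 0.0177) and higher in deprived medium by 0.25 (adjusted p = 5.99e-05), so most of the difference lay in the control level. The call was lost without culture 1 of LM1 in control medium and without culture 2 of LM1-LM in control medium, with an adjusted p of up to 0.0885, and with limma voom. The gene overlaps E230016M11Rik on the opposite strand.

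Further genes rose in both lines and more in LM1-LM, from control levels that were alike in some and lower in LM1-LM in others. Rassf1, which encodes a Ras association domain protein known as a tumour suppressor, stood at 35.1, 37.9 and 37.8 CPM in LM1 cultures and 36.2, 36.7 and 35.7 CPM in LM1-LM in control medium, and at 121, 118 and 126 CPM against 151, 149.9 and 154 CPM after deprivation. The rise was 3.37-fold in LM1 and 4.30-fold in LM1-LM, a difference of 0.35 ± 0.07 (adjusted p = 0.00713). Cnot4, a ubiquitin ligase of the CCR4-NOT complex that shortens mRNA tails, was lower than in LM1 in control medium (52.6, 58.3 and 52.7 against 65.4, 59.9 and 61.3 CPM) and higher in deprived medium (154, 151 and 161 against 135, 135 and 133 CPM), with a difference between responses of 0.40 ± 0.06 (adjusted p = 2.89e-04). Spire1, an actin nucleator, differed by 0.31 ± 0.05 (adjusted p = 0.00202), and Hspb8, a small heat shock protein of chaperone-assisted autophagy, by 0.33 ± 0.06 (adjusted p = 0.00653). For Spire1 and Hspb8 the control cultures of the lines overlapped and every deprived LM1-LM culture lay above every deprived LM1 culture. Ugdh, which makes UDP-glucuronate, Lamp2, a lysosomal membrane protein, and Snhg1, a host gene of small nucleolar RNAs whose counts may include reads of 8 overlapping annotated genes, differed by 0.21, 0.24 and 0.25.

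Gab1, an adaptor that receptor tyrosine kinases phosphorylate, rose from 3.35, 2.53 and 3.00 CPM to 10.3, 9.96 and 10.7 CPM in LM1. In LM1-LM it rose from 4.26, 2.99 and 2.56 CPM to 19.0, 19.1 and 19.9 CPM. The control cultures overlapped and the deprived ones did not, and the difference of 0.75 ± 0.18 (adjusted p = 0.0411) passed in 3 of the 12 fits that left out a library, with an adjusted p of up to 0.173. Hectd2, a ubiquitin ligase, rose 5.81-fold and 8.08-fold, and Serpinb9, an inhibitor of granzyme B, 1.34-fold and 1.82-fold, and each passed in 8 of those 12 fits, with adjusted p-values of up to 0.0892 and 0.0621.

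Myc was the gene with the lowest p-value among those that fell further in LM1-LM. It stood in control medium at 1159, 1158 and 1177 CPM in LM1, and LM1-LM cultures held 1102, 1078 and 1042 CPM. Deprived LM1 cultures held 649.5, 636 and 568 CPM and deprived LM1-LM cultures 446, 447 and 420.2 CPM. Every LM1-LM culture lay below every LM1 culture in the same medium, and the gap between the lines widened with deprivation. The fall was 1.84-fold in LM1 and 2.39-fold in LM1-LM, a difference of -0.38 ± 0.05 (adjusted p = 8.36e-05). Since the lines carry a cMYC transgene, this row may hold reads of both the transgene and the endogenous gene. Cdca7l, which encodes a MYC-interacting nuclear protein, fell 2.83-fold and 3.78-fold (difference -0.42 ± 0.07, adjusted p = 0.00150), from control levels that overlapped at 112 to 118 CPM in LM1 cultures and 109 to 120.3 CPM in LM1-LM.

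Jag2, Plcb3 and several other genes also fell further in LM1-LM. Jag2, a ligand of Notch receptors, stood at 245, 249.9 and 240.3 CPM in LM1 cultures and 217, 218 and 219 CPM in LM1-LM in control medium. After deprivation its values were 87.1, 85.2 and 77.8 CPM in LM1 cultures and 59.2, 60.6 and 61.3 CPM in LM1-LM. The groups did not overlap in either medium, and the difference between responses was -0.30 ± 0.04 (adjusted p = 4.96e-04). Plcb3, a phospholipase C that G proteins activate, fell from 204 to 212 CPM to 89.3 to 94.5 CPM in LM1 cultures and from 195 to 197 CPM to 69.4 to 73.4 CPM in LM1-LM, a difference of -0.29 ± 0.04 (adjusted p = 1.02e-04). Igfbp4, a secreted binding protein of insulin-like growth factors, fell 1.54-fold and 1.84-fold. Apcdd1, an inhibitor of Wnt signalling, fell 3.65-fold and 5.39-fold, and Map3k6, a kinase of stress-activated cascades, 3.02-fold and 4.26-fold. Pwwp3a, a PWWP domain protein, fell 3.55-fold and 4.78-fold from control levels that overlapped. Each of these 6 genes passed with each library left out in turn.

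Other genes fell further in LM1-LM with calls that some cultures decided. Smim1, a small membrane protein, differed by -0.67 ± 0.14, and of the 12 fits that left out a library it failed in the one without culture 1 of deprived LM1 (adjusted p = 0.0660). Rhobtb2 differed by -0.48 and Dctd, the deoxycytidylate deaminase, by -0.46, and they passed in 10 and 4 of the 12 fits that left out a library, with adjusted p-values of up to 0.0621 and 0.136. Syt8, a synaptotagmin, was at 5.16, 7.0 and 5.44 CPM in LM1 control cultures, 4.88, 3.70 and 4.97 CPM in deprived LM1, 3.23, 2.87 and 3.59 CPM in LM1-LM control cultures and 1.45, 1.31 and 1.18 CPM in deprived LM1-LM. Its difference of -0.90 ± 0.21 (adjusted p = 0.0382) passed in 3 of those fits, with an adjusted p of up to 0.113.

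**Figure D3:**
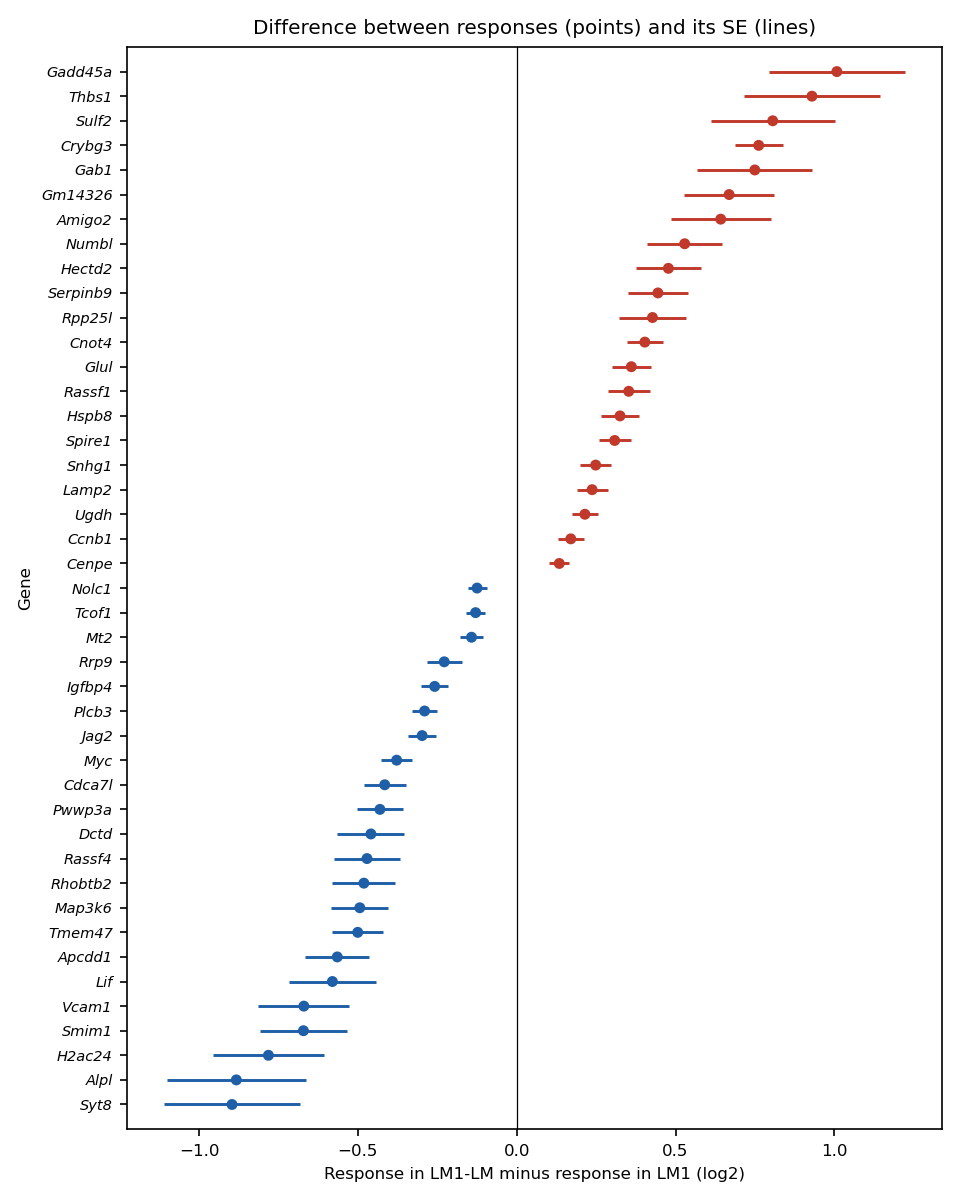
Response of LM1-LM minus that of LM1 on the log2 scale for the 43 called genes named by rule, with points at the estimate and lines of 1 SE to each side, red for more positive and blue for more negative in LM1-LM. The differences run from -0.90 for Syt8 to 1.01 for Gadd45a, and the standard errors of the largest differences exceed those of Crybg3, Myc, Plcb3 and Jag2.

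A smaller group responded less in LM1-LM than in LM1. Glul, the glutamine synthetase, stood at 183, 180.5 and 178 CPM in LM1 cultures and 168, 158 and 157 CPM in LM1-LM in control medium, and at 103, 104 and 116 CPM against 117, 121 and 132 CPM after deprivation. It thus fell 1.63-fold in LM1 and 1.27-fold in LM1-LM (difference 0.36 ± 0.06, adjusted p = 0.00222). Vcam1, an adhesion molecule for leukocyte integrins, rose 5.26-fold in LM1 and 3.31-fold in LM1-LM. Its control level was the higher in LM1-LM (8.18, 7.64 and 5.97 against 4.43, 4.11 and 3.75 CPM), whereas the deprived cultures overlapped at 21.9 to 24.7 CPM and 20.4 to 21.98 CPM. The difference of -0.67 ± 0.14 (adjusted p = 0.0164) passed in 7 of the 12 fits that left out a library, with an adjusted p of up to 0.0820. Lif, the cytokine leukaemia inhibitory factor, rose 2.28-fold and 1.53-fold from control levels that overlapped, and passed in 4 of those fits, with an adjusted p of up to 0.118. Rpp25l, a protein related to a subunit of RNase P, fell less in LM1-LM by 0.43 and passed in 3 of those fits, with an adjusted p of up to 0.134.

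Some genes responded in a single line or in opposite directions. Tmem47, a membrane protein of cell junctions, rose in LM1 from 64.8, 60.2 and 62.4 CPM to 82.6, 79.6 and 76.4 CPM. In LM1-LM it stood at 49.8, 53.8 and 52.1 CPM in control medium and at 51.2, 43.5 and 44.8 CPM in deprived medium, and the difference was -0.50 ± 0.08 (adjusted p = 0.00222). Alpl, the tissue-nonspecific alkaline phosphatase, rose in LM1 from 6.39, 4.70 and 4.83 CPM to 8.97, 8.22 and 7.82 CPM. It stood at 1.51, 1.41 and 1.96 CPM in control medium and at 1.64, 1.31 and 1.13 CPM in deprived medium in LM1-LM, so the line difference was present in both media. Sulf2, an extracellular sulfatase of heparan sulfate, fell in LM1 and stood at 3.57 to 6.11 CPM and 3.98 to 4.20 CPM in LM1-LM. The differences of Alpl (-0.88 ± 0.22) and Sulf2 (0.81 ± 0.20) passed in 3 and 2 of the 12 fits that left out a library, with adjusted p-values of up to 0.167 and 0.134.

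Thbs1, the matrix protein thrombospondin-1, fell in LM1 (log2 fold change -0.61) and rose in LM1-LM (0.32), at 28 to 94 counts per library. Its difference of 0.93 ± 0.21 (adjusted p = 0.0301) passed in 4 of the 12 fits that left out a library, with an adjusted p of up to 0.117. It passed in 5 of the 9 other settings that keep every library. Numbl, an adaptor related to the Notch inhibitor Numb, fell by 0.20 and rose by 0.33 and passed in 6 of the 12, with an adjusted p of up to 0.0987. Amigo2, an adhesion protein, and Gm14326, a zinc finger gene with close paralogs that could share reads, rose in LM1-LM without a call in LM1, and H2ac24, a histone H2A gene with near-identical copies, and Rassf4 fell there without one. These 4 differences of 0.64, 0.67, -0.78 and -0.47 passed in 2, 9, 7 and 7 of those fits, with adjusted p-values of up to 0.153, 0.0631, 0.102 and 0.117. Another 3 called genes had a mean under 2 CPM and were named after their values were seen: Mamdc2, with no count in the LM1-LM control cultures and 29 to 56 in the deprived ones, Ang2, with 0, 0 and 1 counts in deprived LM1-LM, and Gm49510, with at most 23 counts in any culture. Their fitted differences depend on counts of 0 and are not given.

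The lines differed more in deprived than in control medium. Between LM1-LM and LM1, 10.5% of the genes tested passed in control medium and 16.9% in deprived medium. Of the 103 called genes, 41 passed in control medium, 90 in deprived medium and 28 in both, in tests that share cultures with the one that chose the genes. The number for control medium was 714 without culture 2 of all groups, and for deprived medium 1235, against 1410 and 2266 with all cultures. The 3 cultures of each line did not overlap in control medium for 59 of the 103 genes, where 25.7% of all genes tested did not, and in deprived medium for 95, where 32.5% of all genes did not. In deprived medium LM1-LM lay above LM1 for 36 of these genes and below it for 59, and in control medium above for 20 and below for 39. The split by direction over all genes tested was not counted.

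Gene lists of other pathways held few called genes. Of 34 ribosome biogenesis genes, 9 rose and 23 fell in LM1, where 35.8% of all genes tested rose and 35.3% fell, and 3 passed the test of the difference, each more negative in LM1-LM. They are Rrp9 (-0.23), a protein of small nucleolar ribonucleoproteins, Nolc1 (-0.12), a nucleolar phosphoprotein, and Tcof1 (-0.13), the nucleolar treacle protein, which rose in both lines. The list's median difference was -0.03, and 0.0005 over all genes tested. Of 38 genes of DNA replication and mitosis, 22 fell (35.3% of all genes) and 11 rose (35.8%) in LM1, and Ccnb1 (0.17), the cyclin of mitotic entry, and Cenpe (0.13), a kinetochore motor, rose more in LM1-LM. That list's median difference was 0.04. Each of these 5 calls was lost in 8 or more of the 12 fits that left out a library, which gave adjusted p-values of up to 0.151.

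In the remaining lists, 1 of 30 NRF2 targets (Ugdh), 1 of 21 p53 targets (Gadd45a), 1 of 31 AP-1 and immediate early genes (Myc), 2 of 21 NF-kB, chemokine and cytokine genes (Lif and Vcam1), 1 of 29 lysosome and autophagy genes (Lamp2), 1 of 27 collagens, laminins, integrins and matrix genes (Thbs1) and 2 of 19 heat shock and metal response genes passed. The last of these were Hspb8 and Mt2, a metallothionein that rose in both lines and less in LM1-LM by 0.14, a call that held in 1 of the 12 fits that left out a library (adjusted p of up to 0.149). By edgeR no gene passed among 27 of glutathione and transsulfuration, 20 of iron and ferroptosis, 23 of the unfolded protein response, 30 of sterol and fatty acid synthesis, 24 interferon-stimulated genes, 25 of epithelial and mesenchymal state and 26 of hypoxia and glycolysis, nor among the tested markers of fibroblasts (5), leukocytes (3), endothelium (3), alveolar epithelium (3) and mammary epithelium (7). An unadjusted p under 0.05 was found for 1514 of the 13400 genes tested. In the lists with a call it was found for 14 of 38 genes of DNA replication and mitosis, 8 of 34 of ribosome biogenesis, 8 of 21 NF-kB, chemokine and cytokine genes, 7 of 19 of heat shock and metal response, 7 of 30 NRF2 targets, 6 of 21 p53 targets, 6 of 31 AP-1 genes, 6 of 27 matrix genes and 1 of 29 lysosome genes. In the lists without a call, it was found for 2 genes of glutathione and transsulfuration, 1 of iron and ferroptosis, 2 of the unfolded protein response, 7 of sterol and fatty acid synthesis, 2 interferon-stimulated genes, 5 of epithelial and mesenchymal state and 4 of hypoxia and glycolysis, and for 2 fibroblast and 2 mammary markers and for none of the leukocyte, endothelial and alveolar ones. DESeq2 called Gclc and Slc3a2 of the glutathione list, Edem1 of the unfolded protein response and Mxi1 of hypoxia and glycolysis, and voom Slc3a2, and Slc3a2, Edem1, Mxi1 and Stc2 are named here after their values were seen. Medians of the 17 pathway lists lay between -0.05 and 0.07. At the background share of 0.769%, a list of this size would hold less than 1 called gene.

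**Figure D4:**
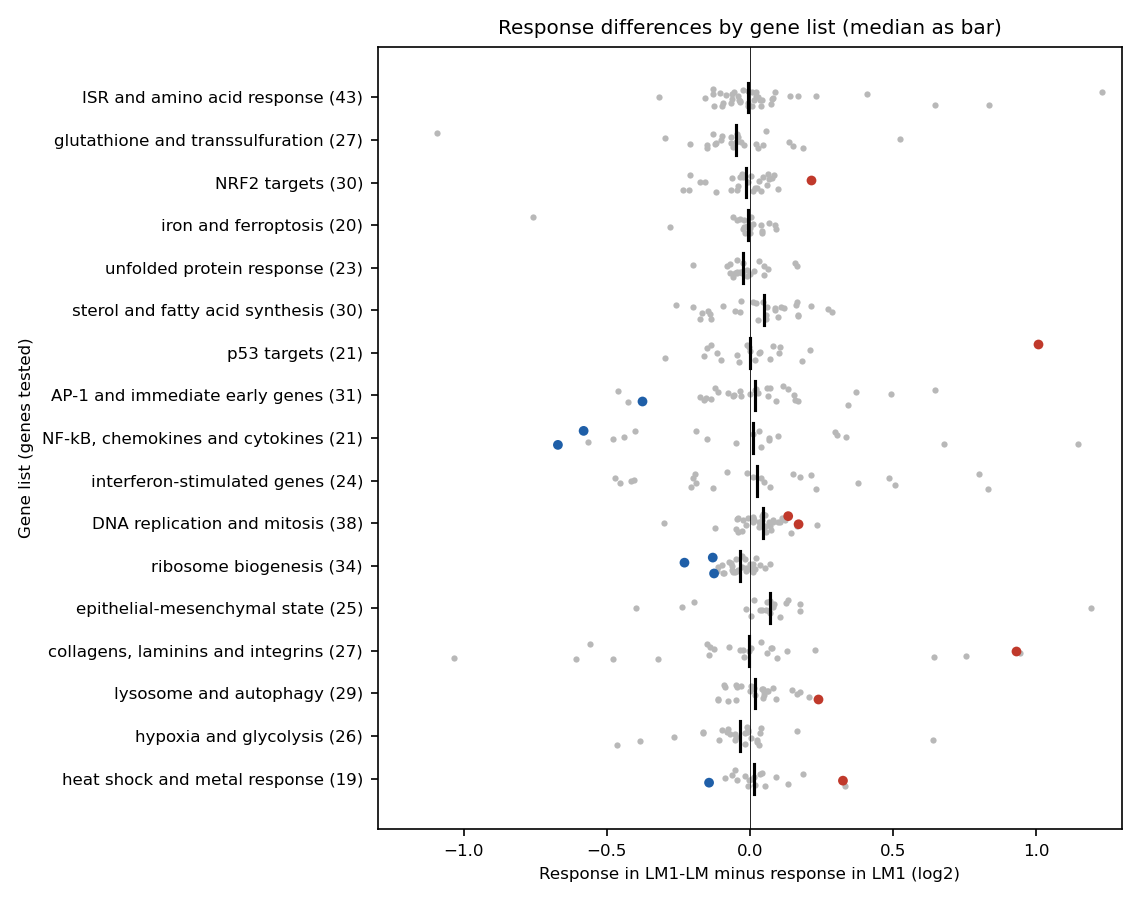
Response of LM1-LM minus that of LM1 on the log2 scale for each tested gene of 17 pathway lists, with the number tested in brackets, a bar at the median, called genes in red (more positive) or blue (more negative) and all others in grey. The medians lie between -0.05 and 0.07, the called genes Gadd45a (1.01) and Thbs1 (0.93) lie farthest to the right among those called, and 9 genes that did not pass lie beyond the axis limit of 1.3.

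The called genes also responded to deprivation in the less passaged lines. In Myc310, the parent of LM1, 95 of the 103 passed between deprived and control medium where 66.8% of all genes tested did, 80 of them (84.2%) in the direction of LM1-LM and 15 in the opposite one, where 95.1% of all genes that passed in Myc310 had the direction of LM1-LM. In MYAZ16.1e, a line from a mammary tumour of another MMTV-cMYC mouse, 80 passed where 53.7% of all genes did, 66 of them (82.5%) in the direction of LM1-LM and 14 in the opposite one, against 84.8% in the direction of LM1-LM for all genes that passed. Over the 100 called genes with at least 2 CPM, the median absolute log2 fold change grew over MYAZ16.1e (0.289), Myc310 (0.609), LM1 (0.832) and LM1-LM (1.1), and over all genes tested it was 0.228, 0.368, 0.454 and 0.479. For 65 of the 77 genes with the same direction and the larger response in LM1-LM (84.4%), the response grew in that direction from MYAZ16.1e through Myc310 and LM1 to LM1-LM. The same order held for 3954 of the 5513 genes of that class over the whole table (71.7%). By direction it held for 23 of the 32 called genes that rose more (71.9%), a share like that of the whole class, and for 42 of the 45 that fell more (93.3%). By step, the response was larger in Myc310 than in MYAZ16.1e for 85.7% of the 77 genes and 87.1% of the whole class, and larger in LM1 than in Myc310 for 97.4% and 82.4%. The step from LM1 to LM1-LM is the one that chose the genes and the step from Myc310 to LM1 shares the LM1 cultures with it, so the counts are given without a test.

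Rassf1 had a log2 fold change of 0.01 for MYAZ16.1e, 0.99 for Myc310, 1.75 for LM1 and 2.11 for LM1-LM. That of Myc was 0.06, -0.32, -0.88 and -1.26 in the same lines, that of Jag2 was -0.36, -0.79, -1.52 and -1.82, and that of Gadd45a was 4.55, 5.48, 6.74 and 7.75. Crybg3 did not follow the order, with 0.13 in MYAZ16.1e and -0.27 in Myc310 before 0.70 in LM1 and 1.46 in LM1-LM. Vcam1 responded less in LM1-LM (1.73) than in either Myc310 (2.77) or LM1 (2.40), and Glul fell by 1.13 in Myc310, by 0.71 in LM1 and by 0.35 in LM1-LM.

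**Figure D5:**
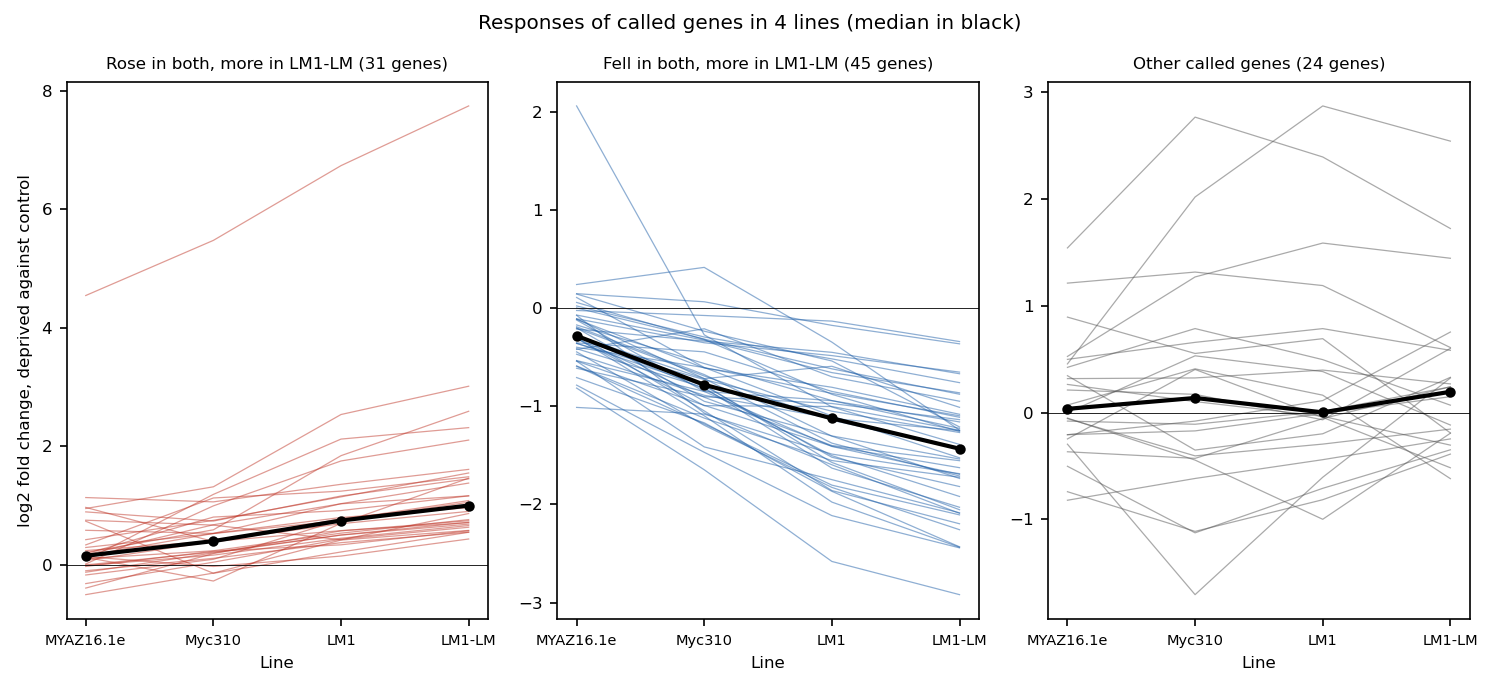
Log2 fold change between deprived and control medium in the 4 lines, ordered as MYAZ16.1e, Myc310, LM1, LM1-LM, for the 100 called genes with at least 2 CPM, with 1 thin line per gene and the median in black. The median runs from 0.152 to 1.0 for the 31 genes that rose more in LM1-LM. It runs from -0.28 to -1.43 for the 45 that fell more, and both panels were chosen by the step from LM1 to LM1-LM. The 24 others hold rising and falling genes together, so their signed median cannot show a trend in size.

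Control levels of Alpl, Sulf2 and Myc can also be set beside those of LM2 and LM3, isolated as LM1 was, and of the doubly passaged LM2-LM and LM3-LM, all of which were sequenced in control medium alone. These 3 genes were not picked by a rule. Alpl was at 1.63 CPM in LM1-LM and at 10.5 and 55.8 CPM in LM2-LM and LM3-LM, and at 5.31, 48.8 and 73.8 CPM in LM1, LM2 and LM3. Sulf2 was at 4.78 CPM in LM1-LM, 91.2 CPM in LM2-LM and 2.27 CPM in LM3-LM, against 13.4, 10.1 and 9.26 CPM in LM1, LM2 and LM3. For Myc the levels were 1074, 1178 and 693 CPM in LM1-LM, LM2-LM and LM3-LM and 1165, 820 and 1009 CPM in LM1, LM2 and LM3. For Alpl and Myc the means of 3 cultures spread more widely over the 3 isolates of each kind than between LM1 and LM1-LM. For Sulf2 this was not so among LM1, LM2 and LM3, and other called genes are not set side by side here. The deprivation response was measured in LM1-LM alone of the doubly passaged lines.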

How the data were processed

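RNA was extracted from the 45 cultures and sequenced in bulk, and the 12 libraries of LM1 and LM1-LM in both media were compared here. Per the labels and the study's methods, each well received 250000 cells, which were given control or cysteine/cystine free medium 24 h later and lysed after 6 h of it. The values used are the counts per gene that the authors deposited, made with STAR and RSEM on GRCm38 per the submitters' processing notes, which also name R 4.2.2 and DESeq2 1.38.3. Libraries were made with a directional kit, and the strand setting of the counting is not given in the sources used here.

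Genes were filtered with filterByExpr, and TMM factors and edgeR 4.0.16 quasi-likelihood fits (R 4.3.3) were computed over the 24 libraries of the lines grown in both media (also MYAZ16.1e and Myc310), in 8 groups that share one estimate of the spread. The interaction contrast was adjusted by Benjamini-Hochberg over all 13400 genes, with a threshold of 0.05, and adjusted p-values of a response difference are from it unless another tool is named, while those of a single line's response or of a single medium are from that contrast of the same fit, adjusted in the same way. CPM are TMM-scaled over all 45 libraries, and fold changes come from the fit. Steps were tested on simulated data. The members and gene lists were chosen with earlier results of these data known.

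Named genes are, among called genes with a mean of at least 2 CPM over the 12 libraries, the 12 largest differences in each direction, the next 6 by adjusted p in each direction, called members of the gene lists, and 16 genes listed by name whether called or not (genes of cysteine and glutathione metabolism and of the stress response, with Gadd45a and Myc). Alternatives were RLE and upper-quartile scaling, no filter, at least 10 counts in every library, a replicate block, the 12 libraries alone, DESeq2 1.42.0, limma 3.58.1 voom, libraries thinned to 19517859 counts, and leaving out cultures. Every number is limited by 3 cultures per group and by 19521444 to 28188741 counts per library.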

Additional observations from a re-analysis of the deposited data

Results flagged for a closer look

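The responses of the lines differed by a test of the difference itself in 103 genes, the comparison the report describes. No group held enough cultures for a test of single outlying values. The named differences, on the log2 scale and as LM1-LM minus LM1, were as follows. Among genes that rose in both lines and more in LM1-LM they were 1.01 for Gadd45a, 0.76 for Crybg3, 0.75 for Gab1, 0.48 for Hectd2, 0.44 for Serpinb9, 0.40 for Cnot4, 0.35 for Rassf1, 0.33 for Hspb8, 0.31 for Spire1, 0.25 for Snhg1, 0.24 for Lamp2, 0.21 for Ugdh, 0.17 for Ccnb1 and 0.13 for Cenpe. Among genes that fell in both lines and more in LM1-LM they were -0.12 for Nolc1, -0.23 for Rrp9, -0.26 for Igfbp4, -0.29 for Plcb3, -0.30 for Jag2, -0.38 for Myc, -0.42 for Cdca7l, -0.43 for Pwwp3a, -0.46 for Dctd, -0.48 for Rhobtb2, -0.49 for Map3k6, -0.57 for Apcdd1, -0.67 for Smim1 and -0.90 for Syt8. Responses were smaller in LM1-LM for Glul (0.36), Rpp25l (0.43), Tcof1 (-0.13), Mt2 (-0.14), Lif (-0.58) and Vcam1 (-0.67). Genes called in LM1 alone were Sulf2 (0.81), Tmem47 (-0.50) and Alpl (-0.88), and in LM1-LM alone Gm14326 (0.67), Amigo2 (0.64), Rassf4 (-0.47) and H2ac24 (-0.78). The lines responded in opposite directions for Thbs1 (0.93) and Numbl (0.53).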

How the results depend on the processing

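The count of 103 genes was 218 with no filter on low counts and 187 with DESeq2, and between 78 and 118 under the other settings that kept every library. The genes more positive in LM1-LM numbered 78 with no filter and 28 with the 12 libraries alone, and those more negative 140 with no filter and 126 with DESeq2, which gave 61 more positive. Leaving out cultures gave 4 to 105 genes, 2 to 52 of them more positive and 2 to 54 more negative. Differences over 2-fold, 4 of them with the 3 genes under 2 CPM included, numbered 37 with no filter, 2 with at least 10 counts in every library, 2 with the replicate block, 2 with voom and 0 to 6 with cultures left out. Genes that differed between the lines numbered 714 to 1388 in control medium and 1235 to 2366 in deprived medium with cultures left out. None of the 103 differences changed sign under any alternative that gave a value. The genes were chosen by that difference in these same libraries, so a stable sign was likely beforehand and is no evidence for the calls. With the block for the replicate number 93 genes passed, 90 of them among the 103. The numbers were not taken to pair the libraries, since deviations of same-numbered libraries correlated at -0.162 to 0.177, mostly under 0.1. As a hint from the data alone, 12 of 24 libraries, and so not every one, correlated best with a library of their own number, which 7 of the 21 libraries of the other groups carry. Of genes that did not pass, the differences that changed sign with cultures left out ranged from -0.24 to 3.32 for Cbs (0 to 7 counts per library), -0.44 to 0.25 for Chac1, -0.0555 to 0.11 for Cth, -1.64 to 0.0626 for Gpx3 (1 to 23 counts), -0.0471 to 0.0177 for Gpx4, -0.0470 to 0.12 for Gsr, -0.15 to 0.0784 for Slc7a11 and -0.23 to 0.0568 for Trib3. At such counts the fitted values of Cbs and Gpx3 depend on the prior count and are no measure of a fold. The cause of these changes was not tested.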
